A study of Arabidopsis thaliana with 24 samples.

Results

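Batch 3 of the 2018 experiment consists of 4 seedling libraries, those whose label carries batch number 3, and it was set against the 8 libraries of batches 1 and 2, out of 24 libraries in the series. Which libraries belong to it was taken from the labels alone. Batch 3 itself was singled out for comparison with earlier results of these data known. Each batch held 1 library of each of 4 genotypes, all in the Arabidopsis thaliana accession Col-0 and all harvested as seedlings at 14 days. The genotypes were WT, the T-DNA insertion mutant dne1-1 (labelled Salk132521, written dne1 below), and 2 lines, DNE1OE1 and DNE1OE2 (labelled T3_2 and T3_5), that express a GFP fusion of DNE1 from the constitutive 35S promoter of cauliflower mosaic virus. DNE1 (AT2G15560) is annotated as a putative endonuclease or glycosyl hydrolase. RNA was extracted with TRIZOL and made into libraries with the Lexogen SENSE mRNA-Seq kit. The series design calls the replicates biological, and the labels do not say how the batches differed in sowing, growth, harvest time or handling. Batch 3 is a single batch, so the p-values below set its 4 libraries against the spread of these 12 libraries and do not describe batches in general.

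As background, a plant's transcriptome depends strongly on the time of day. The Arabidopsis circadian clock is a set of interlocking repressors in which CCA1 and LHY act around dawn, the pseudo-response regulators PRR9, PRR7 and PRR5 act in turn through the day, and TOC1 and the evening complex of ELF3, ELF4 and LUX act towards night. The clock, light, sugar status and handling of the plants all drive large groups of genes, among them those of light harvesting, growth hormones, iron uptake and the wound hormone jasmonate. Plants of 1 genotype sampled at different times or under slightly different conditions can therefore differ in many genes without any difference in genotype.

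The libraries held 36714564 to 70561391 recovered reads, with 36714564 to 65102431 in batch 3 and 41903233 to 70561391 in batches 1 and 2. DNE1 followed the labels in every batch: its normalized read count in batch 3 was 1548, 362, 23636 and 20599 in WT, dne1, DNE1OE1 and DNE1OE2, with 1294 to 1545 in WT, 263 to 302 in dne1 and 17739 to 21603 in the overexpressors of batches 1 and 2. The batch difference of DNE1 did not pass the test (0.20 ± 0.08 on the log2 scale, adjusted p = 0.1). VCS, a scaffold of mRNA decapping, likewise did not pass the test (-0.12 ± 0.08, adjusted p = 0.3). Photosynthesis genes took 21.3 to 24.1% of reads in batch 3 and 14.2 to 21.2% in batches 1 and 2. Root and root hair markers summed to 46819 to 66909 normalized counts in batch 3 and 59656 to 79288 in the other batches, and seed storage and embryo genes to 259 to 529 and 112 to 1871. The 100 most abundant genes took 30.4 to 34% of reads in batch 3 and 24.8 to 31.9% in the others. In whole seedlings fewer cells of a type and less RNA per cell cannot be told apart.

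Once the mean of each genotype was removed, batch 3 separated from the other 2 batches along the first principal component of the log2 values, which held 42.9% of the variance. The batch 3 libraries lay at 33.9 to 56.2 on this axis and the other 8 at -43.5 to -12.7. Batches 1 and 2 were apart on the second component (20.4% of the variance), with batch 1 at 13.6 to 39.7 and batch 2 at -38.8 to -10.3. WT, dne1 and DNE1OE2 of batch 3 lay at 1.15 to 4.52 there, while the DNE1OE1 library of batch 3 stood apart from them at -29.5. It was also the shallowest of the 12 libraries, with 36714564 reads, and the counts of called genes between batches are given with and without it.

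**Figure D1:**
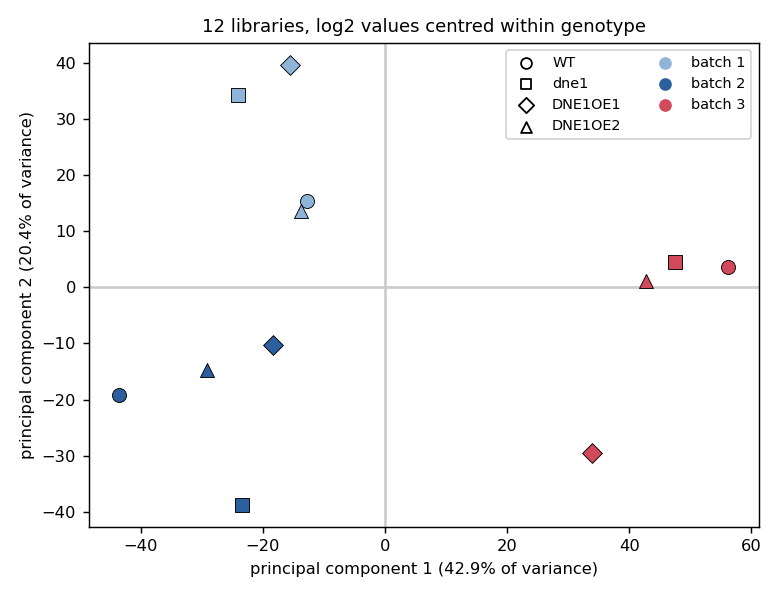
Position of the 12 libraries on the first 2 principal components of log2(normalized count + 1) after subtracting each genotype's mean; the axes give each component's share of the variance, colours mark batches and symbols genotypes. The 4 batch 3 libraries lie at 33.9 to 56.2 on component 1, to the right of the other 8, and the DNE1OE1 library of batch 3 lies at -29.5 on component 2.

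Between batch 3 and batches 1 and 2, 5556 of 21631 genes tested passed the test (25.7%), 2872 of them higher in batch 3 (13.3%) and 2684 lower (12.4%). Differences are given as log2 of batch 3 over the mean of batches 1 and 2 within genotype, ± SE, from limma with a genotype term (4 against 8 libraries) and Benjamini-Hochberg adjustment over all genes tested; a gene is called at an adjusted p under 0.05, and rose or fell is written only of called genes. Where many 31-base words of a transcript occur in other transcripts, or a gene overlaps another, its reads are named as uncertain. Over all genes tested the median difference was 0.01. In 3077 genes (14.2%) the batch 3 library exceeded both other libraries in all 4 genotypes, and in 2931 (13.5%) it was below both. Most differences were small: 736 called genes differed by at least 1 on the log2 scale, 495 higher and 241 lower. Without the WT library of batch 3 the count of called genes was 2199, without the dne1 library 3239, without the DNE1OE1 library 4537, and without the DNE1OE2 library 3215. With scaling by library size only, 1478 genes were called higher and 4406 lower, and the median of all genes was -0.13.

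The largest rises among genes on the same side in all 4 genotypes, with a mean normalized count of at least 50, were led by PRR9, a clock repressor of the morning, described with the clock genes below. BBX16 (AT1G73870), a B-box zinc finger factor, stood at 242, 163, 502 and 386 in WT, dne1, DNE1OE1 and DNE1OE2 of batch 3 and at 7.4 to 145 (median 33.2) in the 8 other libraries, a difference of 3.42 ± 0.42 (adjusted p = 0.00073). Its batch 3 values all lay above those of the other batches. TPS03 (AT4G16740), a terpene synthase, rose by 3.39 ± 0.29 from 27.5 to 142 (median 51.2) to 398 to 832, and CIPK20 (AT5G45820), a kinase regulated by calcium sensors, by 3.36 ± 0.53 from 35.3 to 983 (median 215) to 1049 to 2631. No library of batch 3 overlapped the other batches for either gene. NAP (AT1G69490), a NAC factor that promotes leaf senescence, rose by 2.84 ± 0.37 to 302 to 602. Of the less studied loci, the alpha/beta-hydrolase gene AT1G73480 rose by 2.86 ± 0.29, AT1G75490, annotated as a DNA-binding protein of the integrase type, by 2.70 ± 0.43 and the uncharacterized gene AT2G15020 by 3.05 ± 0.81 (adjusted p = 0.021). The call was lost with 1 library left out for AT2G15020 (without WT, dne1 or DNE1OE1 of batch 3). Also lost with no genotype term was the call of AT2G15020. Reads are uncertain for PRR9 (32.6% of 31-base words shared).

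Of the 12 largest falls, 8 were genes of the iron deficiency list, led by CYP82C4, and the other 4 were LURP1, WRKY38, ACD6 and the clock-related gene RVE2. LURP1 (AT2G14560), which is induced late in the response to a downy mildew pathogen, stood at 66.2, 609.8, 114 and 136 in WT, dne1, DNE1OE1 and DNE1OE2 of batch 3 against 1079 to 2764 (median 1439) elsewhere (-3.33 ± 0.36, adjusted p = 0.00043). All 4 values lay below every other library, with dne1 the least reduced. The iron, defence and clock groups are described below. Reads may be shared with other genes for CYP82C4 (21.8% of 31-base words shared).

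**Figure D2:**
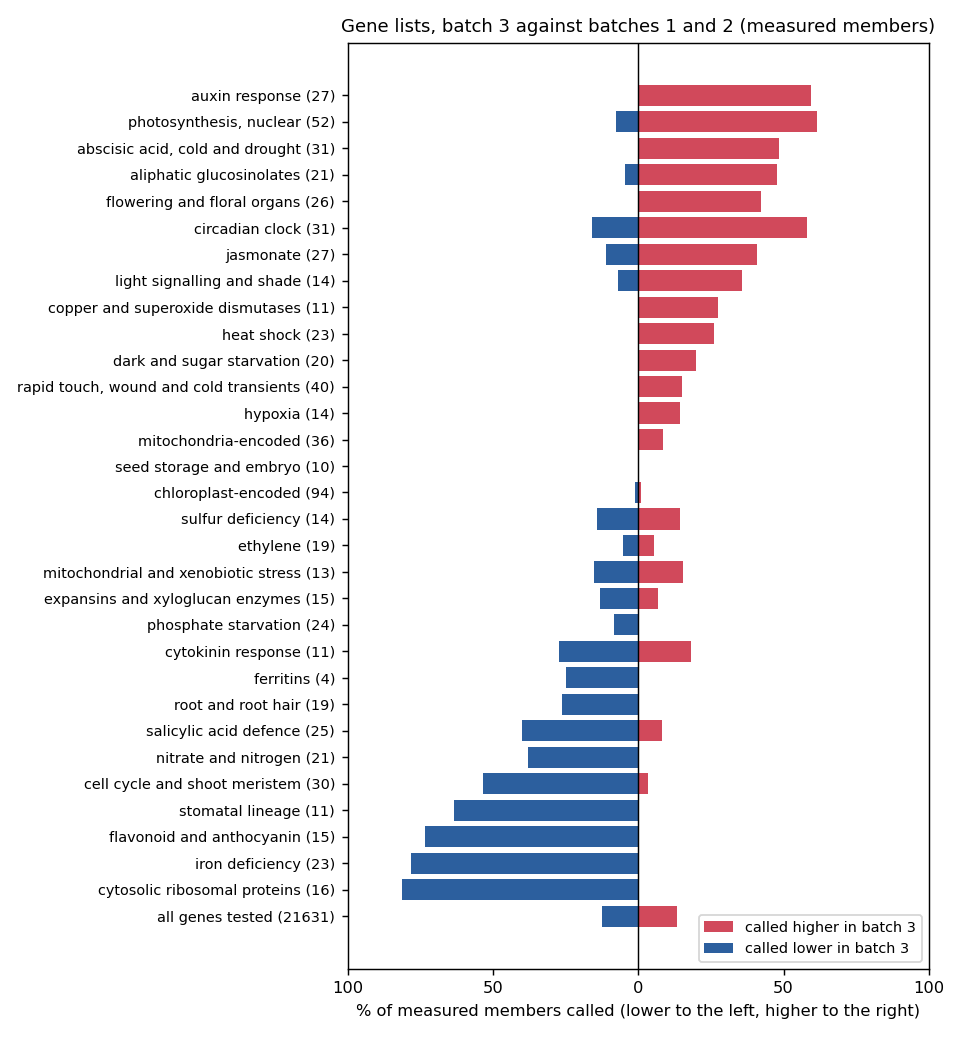
Share of the measured members of each gene list that were called higher (red, to the right) or lower (blue, to the left) in batch 3 against batches 1 and 2, in percent, with the number of measured members in brackets and all genes tested in the lowest bar. Iron, flavonoid, ribosomal and stomatal lists extend to the left without members to the right, auxin, abscisic acid and flowering lists to the right without members to the left, against 13.3% higher and 12.4% lower among all genes.

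Of 31 measured clock genes 18 rose and 5 fell, with a median difference of 0.83, beside 13.3% higher, 12.4% lower and a median of 0.01 over all genes tested. The 5 largest rises were those of PRR9, CCA1, LNK3, LNK2 and LNK4, all known as morning genes. CCA1 (AT2G46830), the dawn MYB repressor, stood at 414, 308, 1386 and 1036 in WT, dne1, DNE1OE1 and DNE1OE2 of batch 3 and at 20.5 to 275 (median 99.9) in batches 1 and 2. The batches did not overlap, and the difference was 2.90 ± 0.31 (adjusted p = 0.0004). Its partner LHY (AT1G01060) rose less, by 0.97 ± 0.27 (adjusted p = 0.025). PRR9 (AT2G46790), the first pseudo-response regulator of the day, stood at 63.9, 49.3, 241 and 171 against 1.21 to 33.3 (median 5.83), a difference of 3.80 ± 0.34 (adjusted p = 0.0002). PRR9 was lowest in WT and dne1 and highest in the overexpressors in all 3 batches, and batch 3 exceeded both other batches in each genotype. A single library changed the call for LHY (without dne1, DNE1OE1 or DNE1OE2 of batch 3). Levels may include reads of other genes for LNK3 (opposite-strand overlap), LNK2 (opposite-strand overlap) and LNK4 (same-strand overlap).

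The coactivators of the morning, the LNK genes, rose together. LNK2 (AT3G54500) stood at 3029, 2249.6, 3313 and 2590.0 in the batch 3 libraries against 262 to 825 (median 446) elsewhere (2.56 ± 0.29, adjusted p = 0.00052), and LNK3 and LNK4 rose by 2.81 ± 0.24 and 2.54 ± 0.43. LNK1 rose to 2139 to 3078 from 570.5 to 1760.4 (median 923) (adjusted p = 0.00042). RVE8 (AT3G09600), a MYB activator that works with the LNK proteins, rose by 1.62 ± 0.23 to 104 to 377 from 38.1 to 94.7 (median 74.7), and its relative RVE4 also rose, to 5089 to 7277 from 2529 to 3719 (median 2884) (adjusted p = 0.00018). The B-box genes COL1 and COL2 rose by 1.46 ± 0.27 and 1.64 ± 0.34. Of the genes that follow later in the day, PRR7 rose by 1.66 ± 0.30, PRR5 by 1.18 ± 0.29 and GI, which stabilises the blue-light receptor ZTL, by 1.03 ± 0.28. GI stood at 9351, 9000.1, 5930.4 and 6468 in batch 3 against 2074 to 6332 (median 3672) elsewhere, so that DNE1OE1 lay within the range of the other batches and DNE1OE2 just above it. Calls ended without 1 named library for PRR5 (without WT or dne1 of batch 3) and GI (without WT or dne1 of batch 3). Reads are uncertain for LNK1 (opposite-strand overlap), COL1 (98.4% of 31-base words shared, opposite-strand overlap) and COL2 (23.7% of 31-base words shared, opposite-strand overlap).

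None of the evening genes BOA, ELF4, PRR3, TOC1, LUX and ELF3 rose, whereas PRR5 and GI, which also follow later in the day than the morning genes, did. These evening genes were among those added after their values were seen. BOA (AT5G59570), a homologue of the evening complex factor LUX, stood at 295, 315, 128 and 151 in batch 3 against 323 to 572 (median 493) (-1.18 ± 0.15, adjusted p = 0.001). ELF4 fell by 0.50 ± 0.14 and PRR3 fell by 0.56 ± 0.12. TOC1 did not pass the test (-0.44 ± 0.18, adjusted p = 0.1): its batch 3 values of 7538, 7529.5, 3086 and 4098 lay inside the range of the other batches in WT and dne1 and below it in both overexpressors. LUX (-0.06 ± 0.17) and ELF3 (-0.21 ± 0.10) were not called either. CO, the photoperiod factor that promotes flowering, fell by 1.52 ± 0.15 (adjusted p = 0.00032). The largest fall of the list was that of RVE2 (AT5G37260), a MYB-like factor related to CCA1, with 494, 583, 538 and 571 in batch 3 and 1162 to 6987 (median 2794) in the others (-2.35 ± 0.41, adjusted p = 0.0037). Its direction was opposite to that of CCA1. Batch 3 lay below all 8 other libraries for RVE2, and batch 2 exceeded batch 1 in all 4 genotypes, the difference of batch 2 from batch 1 being 1.45 (adjusted p = 0.016). Removing 1 library ended the call for ELF4 (without WT, DNE1OE1 or DNE1OE2 of batch 3). Also lost with no genotype term was the call of ELF4. Reads may be shared with other genes for BOA (51.5% of 31-base words shared, opposite-strand overlap), LUX (20.4% of 31-base words shared, opposite-strand overlap), ELF3 (opposite-strand overlap) and CO (opposite-strand overlap).

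**Figure D3:**
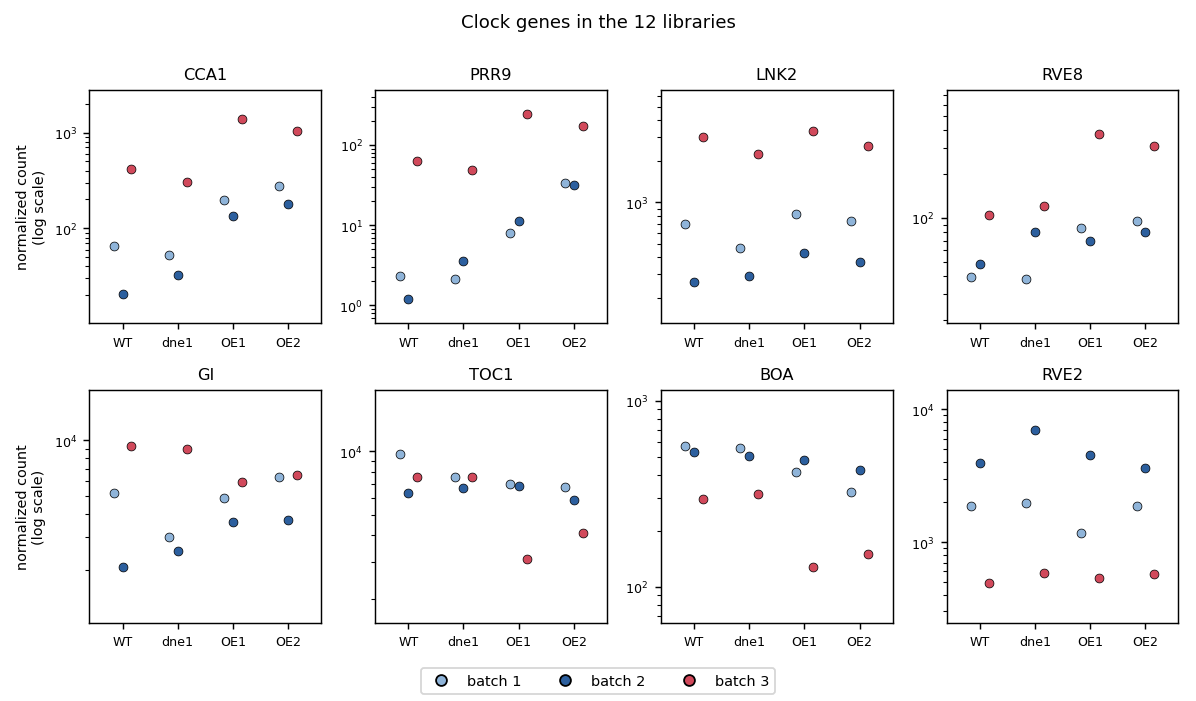
Normalized count (log scale) of 8 clock genes in each of the 12 libraries, grouped by genotype (OE1 and OE2 stand for DNE1OE1 and DNE1OE2) and coloured by batch; each point is 1 library. Batch 3 lies above both other batches in every genotype for CCA1, PRR9, LNK2 and RVE8 and below both for BOA and RVE2, while for TOC1 it lies below them in the 2 overexpressors.

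The promoters of the 3 clock genes with the largest rises and of RVE2, the one with the largest fall, are shown because these genes moved furthest in opposite directions. Given are the 250 bases before the gene start from the RefSeq TAIR10.1 genome, 5′ to 3′ on the gene's strand, with matches to the motifs searched in capitals. Searched on both strands were the evening element AAAATATCT, the CCA1 binding site AAAAATCT, the abscisic acid element ACGTGGC, the G-box CACGTG, the rapid stress element CGCGTT, the heat shock element GAANNTTC, the PHR1 site GNATATNC and the W-boxes TTGACC and TTGACT. Promoters lie at chr2:19232357-19232606, plus strand for PRR9, chr2:19245341-19245590, plus strand for CCA1, chr3:3923265-3923514, plus strand for LNK3 and chr5:14753089-14753338, minus strand for RVE2.
PRR9: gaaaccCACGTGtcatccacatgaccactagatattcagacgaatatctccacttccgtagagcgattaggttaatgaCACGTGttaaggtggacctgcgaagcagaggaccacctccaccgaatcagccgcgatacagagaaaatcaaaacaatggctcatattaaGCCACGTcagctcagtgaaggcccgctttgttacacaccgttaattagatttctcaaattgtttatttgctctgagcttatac
CCA1: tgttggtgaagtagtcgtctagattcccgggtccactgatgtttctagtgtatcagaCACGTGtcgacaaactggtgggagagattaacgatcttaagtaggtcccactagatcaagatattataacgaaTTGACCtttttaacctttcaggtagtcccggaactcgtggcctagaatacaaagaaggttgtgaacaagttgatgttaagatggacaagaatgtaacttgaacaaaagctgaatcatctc
LNK3: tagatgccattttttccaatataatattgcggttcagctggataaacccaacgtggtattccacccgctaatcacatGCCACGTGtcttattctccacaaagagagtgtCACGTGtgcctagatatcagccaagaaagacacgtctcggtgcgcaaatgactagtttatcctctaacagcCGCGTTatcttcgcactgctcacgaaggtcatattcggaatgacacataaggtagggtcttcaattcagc
RVE2: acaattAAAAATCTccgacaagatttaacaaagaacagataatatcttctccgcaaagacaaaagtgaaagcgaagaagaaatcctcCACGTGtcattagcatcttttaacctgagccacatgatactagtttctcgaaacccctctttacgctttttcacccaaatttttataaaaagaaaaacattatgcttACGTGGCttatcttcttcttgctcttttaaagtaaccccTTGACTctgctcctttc
A G-box was present in all 4, in duplicate in PRR9 and LNK3, and ACGTGGC was present on 1 strand or the other in PRR9, LNK3 and RVE2; in LNK3 it overlapped a G-box. CCA1 and RVE2 also held a W-box, RVE2 a CCA1 binding site and LNK3 the rapid stress element. Of the 21500 tested genes with such a window, 7.25% held a G-box and 3.75% held ACGTGGC, against 9 and 10 of the 31 clock genes. The evening element was found in 2.45% of all and in 9 of the clock genes, and in none of the 4 printed. Over all genes called higher in batch 3 the G-box share was 10.6%, and over those called lower 6.08%. The remaining shares over all tested genes were 6.65% for AAAAATCT, 2.81% for CGCGTT, 9.25% for GAANNTTC, 5.42% for GNATATNC, 12.1% for TTGACC and 18.8% for TTGACT. These matches describe the sequence and no binding was measured.

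Several light signalling and many auxin genes were higher in batch 3. Of 14 light signalling and shade genes 5 rose and 1 fell (42.9% called, beside 25.7% of all genes tested). PIF4 (AT2G43010) and PIF5 (AT3G59060), factors that drive elongation when phytochrome activity is low, rose by 1.76 ± 0.32 (adjusted p = 0.0043) and 1.86 ± 0.32 (adjusted p = 0.0031). PIF4 stood at 22107, 19514, 12969.5 and 15108 in the batch 3 libraries and at 2418 to 8041 (median 5011) in the others, with no overlap. HFR1 (AT1G02340), which restrains the PIF factors in shade, rose to 582 to 1192 from 105 to 352 (median 217) (adjusted p = 0.00033), by 2.56, 1.89, 2.16 and 2.08 on the log2 scale in WT, dne1, DNE1OE1 and DNE1OE2. The member that fell was ELIP2, an early light-induced protein of high light, at -1.84 ± 0.42. The call was lost with 1 library left out for ELIP2 (without WT or DNE1OE2 of batch 3).

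Auxin response genes were called higher in 16 of 27 cases and lower in 0, with a median of 0.71. This is 59.3% called, beside 25.7% of all genes tested. IAA29 (AT4G32280), a repressor protein induced by auxin and by PIF factors, stood at 304, 210.1, 438 and 288 in batch 3 against 34.9 to 89.2 (median 49.4) (2.52 ± 0.15, adjusted p = 4.5e-05). Every batch 3 library was above every other library, and the rise was 2.76, 2.42, 2.61 and 2.28 in WT, dne1, DNE1OE1 and DNE1OE2. The small auxin-up RNA genes of 1 cluster, whose products promote cell expansion, rose together: SAUR22 by 2.18 ± 0.36, SAUR21 by 1.99 ± 0.29, SAUR23 by 1.84 ± 0.30 and SAUR24 by 1.82 ± 0.43. YUC8, an enzyme of auxin synthesis, rose by 1.19 ± 0.27, while the auxin-conjugating GH3.3 was not called (-0.58 ± 0.23, adjusted p = 0.09). A single library changed the call for SAUR24 (without WT of batch 3) and YUC8 (without WT of batch 3). Levels may include reads of other genes for SAUR24 (25.8% of 31-base words shared).

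Nuclear photosynthesis genes rose in 32 of 52 cases and fell in 4, with a median of 0.50. Thus 69.2% were called, beside 25.7% of all genes tested. The rises were led by antenna proteins of photosystem II, which bind chlorophyll. LHCB2.1 (AT2G05100) stood at 133799, 106353, 161041 and 137547 in batch 3 against 8519 to 85454 (median 27282) (2.36 ± 0.42, adjusted p = 0.0037). LHCB2.2 rose to 86939 to 126473 from 6423 to 72580.3 (median 20996) (adjusted p = 0.0045), LHCB2.3 by 2.88 ± 0.42 and LHCB1.4 by 1.98 ± 0.41; for all 4 genes the batches did not overlap. The median of the list was -0.31 for batch 2 against batch 1. With 1 library of batch 3 left out the list held 15 higher and 1 lower members (without WT) or 16 and 1 (without dne1). Of 94 chloroplast-encoded genes 1 was called higher and 1 lower, and together they took 0.445 to 0.564% of reads in batch 3 and 0.333 to 0.556% elsewhere. Of 36 mitochondria-encoded genes 3 were called higher and 0 lower. Called shares were 2.13% for the chloroplast-encoded and 8.33% for the mitochondria-encoded list, below the 25.7% of all genes tested. Leaving out 1 library gave these lists 0 to 8 and 1 to 4 called genes. Reads are uncertain for LHCB2.1 (31.8% of 31-base words shared), LHCB2.2 (39.4% of 31-base words shared), LHCB2.3 (39.9% of 31-base words shared, opposite-strand overlap) and LHCB1.4 (23.5% of 31-base words shared).

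Iron deficiency genes were lower in batch 3: of 23 measured 18 fell and 0 rose, with a median of -1.21. The share called was 78.3%, beside 25.7% of all genes tested. Arabidopsis takes up iron by reducing ferric chelates at the root surface with FRO2 and importing ferrous iron with IRT1, under the control of FIT and its bHLH partners. IRT1 (AT4G19690) stood at 90.9, 269, 563 and 600.1 in WT, dne1, DNE1OE1 and DNE1OE2 of batch 3 and at 1329.9 to 5673 (median 3074) in the other batches (-3.17 ± 0.48, adjusted p = 0.0019). FRO2 (AT1G01580) stood at 142, 154, 389.9 and 287 against 698 to 2945 (median 1577) (-2.68 ± 0.38, adjusted p = 0.0014). For both, every batch 3 library lay below every other library, with the overexpressors of batch 3 above WT and dne1.

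Regulators of uptake fell too. BHLH39 (AT3G56980), a partner of FIT, stood at 8.51 to 57.8 in batch 3, lowest in dne1 and highest in DNE1OE1, against 89.8 to 320.3 (median 207) (-2.80 ± 0.30, adjusted p = 0.00045), and BHLH38 and BHLH100 fell by 2.79 ± 0.32 and 2.66 ± 0.31. Their relative BHLH101 was not called (-0.31 ± 0.33, adjusted p = 0.52), and FIT1 itself fell by 0.70 ± 0.17. CYP82C4 (AT4G31940), a cytochrome P450 of iron-mobilising coumarin synthesis, had the largest fall of all called genes, from 216 to 1264 (median 632) to 3.37, 11.9, 49.7 and 44 (-4.72 ± 0.63, adjusted p = 0.0011). AT3G12900, annotated as an oxygenase that uses 2-oxoglutarate and iron, fell by 4.32 ± 0.68, and NAS2, which makes the metal chelator nicotianamine, fell by 2.95 ± 0.45. Those not called besides BHLH101 were MYB72 (-1.50 ± 0.60), PYE (-0.36 ± 0.25), NAS1 (-0.14 ± 0.21) and ZIF1 (0.06 ± 0.16). Iron uptake acts in the root. Root and root hair markers fell in 5 of 19 cases and rose in 0 (26.3% called, near the 25.7% of all genes tested). The median of these markers was -0.29 against -1.21 for the iron list, and their part in the iron result was not tested. Root members called ran from 0 without WT of batch 3 to 8 without dne1 of batch 1. Without the WT library of batch 3, 11 iron genes were called. Calls ended without 1 named library for FIT1 (without WT or dne1 of batch 3). Reads may be shared with other genes for BHLH38 (34.6% of 31-base words shared, opposite-strand overlap), BHLH101 (opposite-strand overlap) and MYB72 (73.2% of 31-base words shared, opposite-strand overlap).

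Iron storage and copper genes are given beside the uptake genes and beside 25.7% of all genes tested called either way. Of 4 ferritin genes, which store iron and are induced when it is plentiful, FER3 fell by 0.82 ± 0.10 (adjusted p = 0.00075) and the other 3 were not called. Of 11 copper and superoxide dismutase genes 3 rose and 0 fell: the copper transporter gene COPT1 by 0.91 ± 0.16, the reductase gene FRO4 by 0.75 ± 0.13 and the iron superoxide dismutase gene FSD1 by 0.48 ± 0.12. Removing 1 library ended the call for FSD1 (without DNE1OE1 of batch 3).

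Flavonoid and anthocyanin genes fell in 11 of 15 measured cases and rose in 0, with a median of -1.37. That is 73.3% called, beside 25.7% of all genes tested. Falls spanned the pathway from its entry to its end. CHS (AT5G13930), the first committed enzyme, stood at 967, 1362, 1197 and 1229.5 in batch 3 against 2361 to 5784 (median 4175) (-1.65 ± 0.25, adjusted p = 0.002), and FLS1, which makes flavonols, fell by 1.57 ± 0.25. DFR (AT5G42800) and LDOX (AT4G22880), of the anthocyanin branch, fell by 1.99 ± 0.33 and 1.76 ± 0.33, and the glucosyltransferase gene UF3GT fell by 2.21 ± 0.42. Batch 3 did not overlap the other batches for any of these 5 genes. Among regulators, TT8 fell by 1.42 ± 0.41, while the MYB genes MYB12 (-0.83 ± 0.35), MYB111 (-0.81 ± 0.32) and PAP1 (0.60 ± 0.52) were not called. Without the WT or the DNE1OE2 library of batch 3, 6 members were called. The call was lost with 1 library left out for TT8 (without DNE1OE1 or DNE1OE2 of batch 2, WT or DNE1OE2 of batch 3). Levels may include reads of other genes for CHS (opposite-strand overlap).

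**Figure D4:**
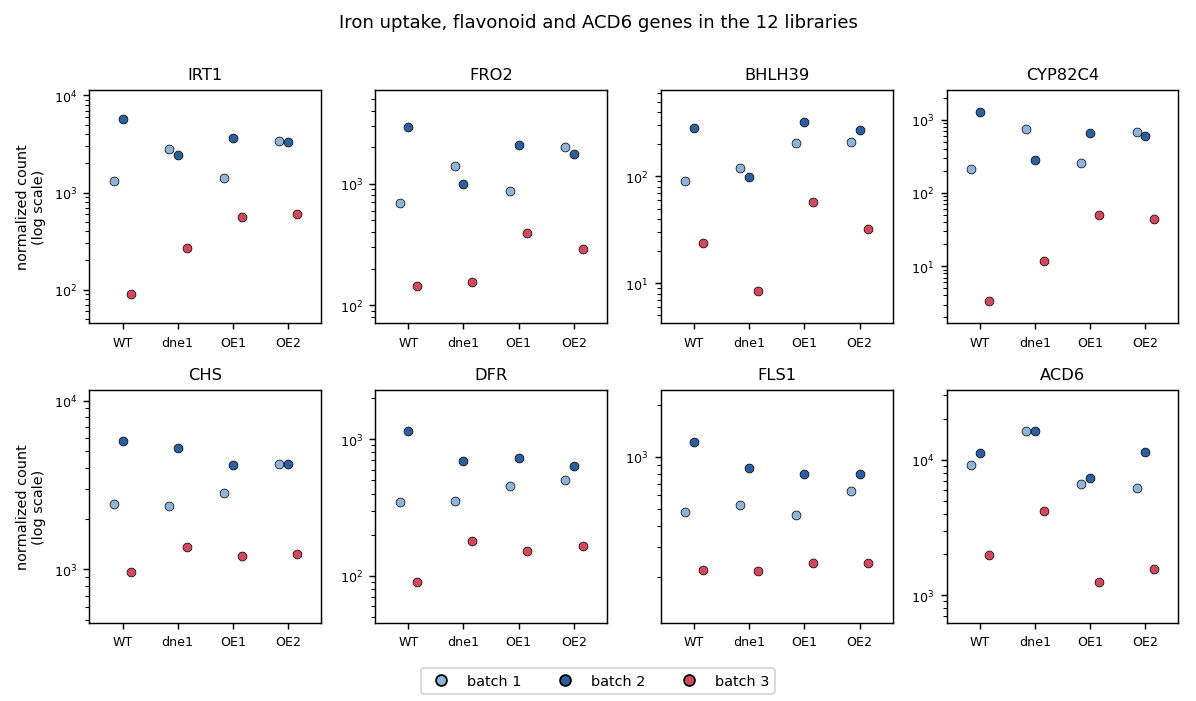
Normalized count (log scale) of 4 iron deficiency genes, 3 flavonoid genes and ACD6 in each of the 12 libraries, by genotype (OE1 and OE2 stand for DNE1OE1 and DNE1OE2) and coloured by batch. In each panel the 4 batch 3 points lie below all 8 others.

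Salicylic acid defence genes fell in 10 of 25 cases and rose in 2 (median -0.74), 48% called beside 25.7% of all genes tested. ACD6 (AT4G14400), an ankyrin protein that promotes salicylic acid signalling, stood at 1969, 4169, 1252 and 1551 in batch 3 against 6194 to 16396 (median 10149). The difference was -2.31 ± 0.15 (adjusted p = 4.7e-05), and the groups did not overlap. WRKY38 (AT5G22570) fell by 2.56 ± 0.28 (adjusted p = 0.00043), and NIMIN1, which binds the salicylic acid receptor NPR1, fell by 1.90 ± 0.31 to 13.5 to 25.1 from 39.8 to 123 (median 73.4). NIMIN2, a relative, was at 0 to 3.21 in batch 3 and 5.44 to 18.1 (median 12.2) elsewhere. The glucanase gene BGL2, a marker of the response, varied over 19 to 1318 within batches 1 and 2, and differed by -1.89 ± 0.62 (adjusted p = 0.047). A single library changed the call for BGL2 (without DNE1OE1 or DNE1OE2 of batch 1, WT, dne1 or DNE1OE2 of batch 2, WT, dne1, DNE1OE1 or DNE1OE2 of batch 3). Also lost with no filter on low values and with no genotype term was the call of BGL2.

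Jasmonate genes included several in which the DNE1OE1 library of batch 3 did not share the rise. Of 27 measured, 11 rose and 3 fell (median 0.32), and of 40 rapid touch, wound and cold transients 6 rose and 0 fell, beside 13.3% and 12.4% of all genes. JAZ9 (AT1G70700), a repressor that jasmonate itself induces, stood at 15500.4, 12439.5, 3283 and 18808 in WT, dne1, DNE1OE1 and DNE1OE2 of batch 3 against 1445 to 4863 (median 2919.8). Thus WT, dne1 and DNE1OE2 were above all libraries of the other batches and DNE1OE1 was among them; the difference was 1.85 ± 0.43 (adjusted p = 0.012). CYP94C1 (AT2G27690), which inactivates jasmonate, showed 695, 559, 133 and 1050.5 against 58.5 to 201 (median 114) (2.22 ± 0.50), and JAZ5 (AT1G17380) 1191, 1046, 149 and 1102 against 144 to 303 (median 179) (1.74 ± 0.50). Calls ended without 1 named library for JAZ9 (without WT, dne1 or DNE1OE2 of batch 3), CYP94C1 (without WT, dne1 or DNE1OE2 of batch 3) and JAZ5 (without DNE1OE2 of batch 1, DNE1OE2 of batch 2, WT, dne1 or DNE1OE2 of batch 3).

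RRTF1 (AT4G34410), a redox responsive factor, stood at 343, 322, 3.21 and 228 in batch 3 and at 0 to 19.1 (median 9.96) elsewhere (3.63 ± 1.12, adjusted p = 0.037). JAZ8 stood at 76.3, 46.8, 3.21 and 59.7 against a median of 3.57 and at most 6.49 (2.92 ± 0.62, adjusted p = 0.0081), with DNE1OE1 within the range of the other batches. JAZ8 passed the filter on low values only through WT, dne1 and DNE1OE2 of batch 3, where it was high. Its p-value is therefore no independent support, and JAZ8 is 1 of the 6 rapid transients called higher. Without any 1 of these libraries it was not tested. The cold regulator gene CBF2 (AT4G25470) differed in that all 4 batch 3 libraries were high, at 176, 98.7, 138 and 107 against 2.11 to 93.7 (median 20.4) (2.74 ± 0.64). By genotype, the batch 3 difference of JAZ5 was 2.53, 2.57, -0.94 and 2.80 in WT, dne1, DNE1OE1 and DNE1OE2, and that of CYP94C1 2.52, 3.08, -0.35 and 3.63. For CCA1 it was 3.45, 2.86, 3.09 and 2.22. Other jasmonate genes went down: TAT3, a tyrosine aminotransferase of wounding, stood at 3.37, 119, 12.8 and 41.9 against 56.8 to 359.7 (median 123) (-2.49 ± 0.58), low in 3 genotypes but not in dne1, and LOX2 fell by 1.02 ± 0.22. Removing 1 library ended the call for RRTF1 (without WT or dne1 of batch 1, WT or dne1 of batch 2, WT, dne1 or DNE1OE2 of batch 3), CBF2 (without WT or dne1 of batch 3), TAT3 (without WT of batch 3) and LOX2 (without WT of batch 3). Also lost by edgeR was the call of TAT3. Reads are uncertain for RRTF1 (61.2% of 31-base words shared, opposite-strand overlap).

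With the DNE1OE1 library of batch 3 left out, 11 jasmonate genes were higher and 2 lower, and 8 of the rapid transients were higher. Without WT of batch 3 these were 4 and 0 jasmonate genes and 0 transients, without dne1 3 and 4 with 0, and without DNE1OE2 2 and 2 with 2. Leaving out WT or dne1 of batch 1, or WT of batch 2, gave 3 transients.

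**Figure D5:**
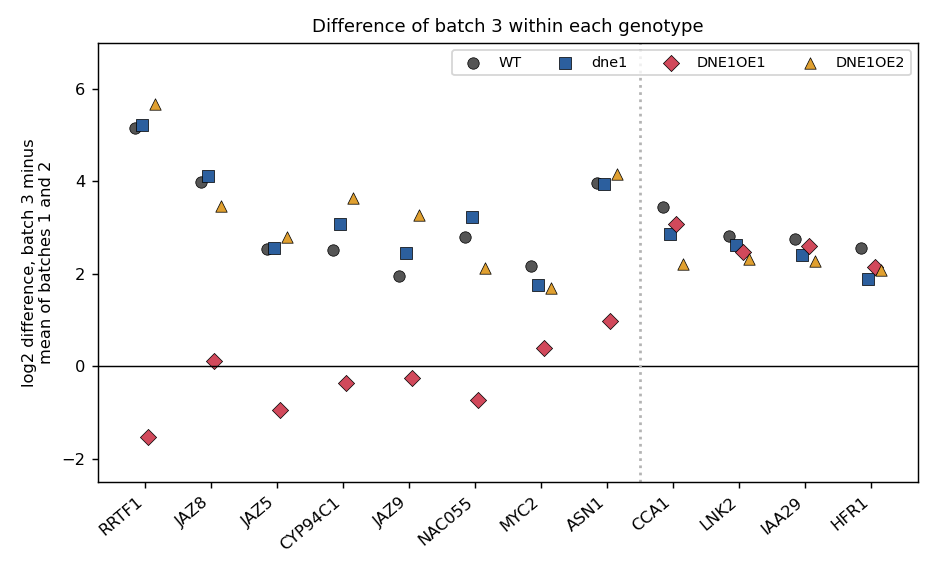
Log2 difference between the batch 3 library and the mean of the batch 1 and 2 libraries, within each genotype, for 8 jasmonate, stress and starvation genes (left of the dotted line) and 4 clock, auxin and light genes (right). The genes were picked with their values known, so the split does not describe these categories. Stress genes such as CBF2 and NAC019, high in all 4 batch 3 libraries, are not shown. Symbols and colours mark genotypes; DNE1OE1 lies at 0.97 or below in the left group, under the other 3 genotypes, and among them in the right group.

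Abscisic acid, cold and drought genes rose in 15 of 31 cases and fell in 0, with a median of 0.65. Called were 48.4%, beside 25.7% of all genes tested. NAC019 (AT1G52890), a NAC factor of drought and abscisic acid responses, stood at 199.7, 145, 152 and 418 in batch 3 against 15.9 to 98.1 (median 31.7) (2.49 ± 0.37, adjusted p = 0.0019). GOLS3 (AT1G09350), which makes the raffinose precursor galactinol in the cold, stood at 255, 220.3, 340.2 and 203 against 23.3 to 191 (median 45.3) (2.09 ± 0.38), and batch 3 exceeded all other libraries for both genes. NCED3, the rate-limiting enzyme of abscisic acid synthesis under drought, rose by 1.55 ± 0.38 to 1185 to 1768 from 166 to 1319 (median 540.1). The abscisic acid list held 8 called members without WT or without dne1 of batch 3, 14 without DNE1OE1 and 12 without DNE1OE2. Heat shock genes were called higher in 6 of 23 cases and lower in 0. This is 26.1% called, near the 25.7% of all genes tested (13.3% higher and 12.4% lower). Without WT, dne1 and DNE1OE1 of batch 3 the called members numbered 2, 1 and 3. The called members were led by another galactinol synthase gene, GOLS1 (AT2G47180), at 1846, 1661, 3034 and 3018 against 621 to 1297 (median 834) (1.44 ± 0.12, adjusted p = 0.00018). The call was lost with 1 library left out for NCED3 (without WT or dne1 of batch 3). Reads may be shared with other genes for GOLS1 (opposite-strand overlap).

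Dark and sugar starvation genes rose in 4 of 20 cases and fell in 0. This is 20% called, below the 25.7% of all genes tested (13.3% higher and 12.4% lower). ASN1 (AT3G47340), an asparagine synthetase that is induced in darkness, stood at 21381, 13805, 3119 and 7066 in batch 3 and at 191 to 4615 (median 677) elsewhere (3.26 ± 0.88, adjusted p = 0.022). Batch 2 was below batch 1 for this gene by 2.88 on the log2 scale, and the DNE1OE1 library of batch 3 lay within the range of the other batches. BCAT2, an enzyme that breaks down branched-chain amino acids, stood at 237, 179, 108 and 126 against 28.1 to 68.3 (median 42.6) (1.84 ± 0.25, adjusted p = 0.0013), without overlap. Members called numbered 9 without DNE1OE1 of batch 3, 7 without DNE1OE1 of batch 1, and 1 without WT, dne1 or DNE1OE2 of batch 3. A single library changed the call for ASN1 (without WT, dne1 or DNE1OE2 of batch 3). Levels may include reads of other genes for ASN1 (opposite-strand overlap) and BCAT2 (opposite-strand overlap).

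Genes of protein synthesis and cell division were lower, by small amounts. List counts here stand beside 13.3% of all genes tested called higher and 12.4% lower. All 16 cytosolic ribosomal protein genes of the list had negative differences and 13 fell (median -0.45). RPS6A (AT4G31700), a protein of the small ribosomal subunit and a target of growth signalling, stood at 12205, 14181, 16095 and 16419 against 20426 to 28481 (median 22024) (-0.64 ± 0.12, adjusted p = 0.0042), and RPL5B fell by 0.54 ± 0.09. Cell cycle and shoot meristem genes fell in 16 of 30 cases and rose in 1 (median -0.29). The mitotic cyclin gene CYCB1;1 (AT4G37490) stood at 265, 358, 497 and 464 against 488 to 694 (median 623) (-0.64 ± 0.13, adjusted p = 0.0067), and PCNA1, the sliding clamp of DNA replication, fell by 0.56 ± 0.12. Stomatal lineage genes fell in 7 of 11 cases and rose in 0 (median -0.43). SPCH (AT5G53210), which starts the lineage, stood at 116, 166, 167 and 184 against 219 to 309 (median 237) (-0.66 ± 0.14), and MUTE, which ends its divisions, fell by 0.64 ± 0.12. The batches did not overlap for SPCH and RPS6A, while in CYCB1;1 the DNE1OE1 library of batch 3 exceeded WT of batch 1. In all 3 genes the WT library was the lowest of batch 3. With library size as the only scaling, which gave all genes a median of -0.13 in batch 3, the medians of the 3 lists were -0.59, -0.43 and -0.56. Without WT of batch 3 the lists held 5, 4 and 2 falls, without dne1 10, 8 and 3, and without DNE1OE2 10, 11 and 2.

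Flowering and floral organ genes rose in 11 of 26 cases and fell in 0 (median 0.44), 42.3% called beside 25.7% of all genes tested. SPL3 (AT2G33810), which promotes the floral transition and is repressed by miR156, stood at 1458, 998, 923 and 1099 against 323 to 494 (median 378) (adjusted p = 0.00021), a rise of 1.85, 1.53, 1.08 and 1.56 in WT, dne1, DNE1OE1 and DNE1OE2, and SOC1, which integrates flowering signals, rose by 0.87 ± 0.09. FT, the mobile signal that induces flowering, was not called (-0.14 ± 0.26, adjusted p = 0.71), nor was LFY (0.33 ± 0.31). Floral organ identity genes were scarce in all libraries: AP3 (AT3G54340), needed for petals and stamens, stood at 68.4, 12.8, 75.4 and 174 in batch 3 against 0.906 to 38.2 (median 18.1) (2.38 ± 0.42, adjusted p = 0.0039), and AP1 rose by 1.77 ± 0.52. The batches overlapped for AP3, with the dne1 library of batch 3 inside the range of the others. Without DNE1OE2 of batch 3 7 members were called. Calls ended without 1 named library for AP1 (without WT, dne1 or DNE1OE2 of batch 3). Also lost with no genotype term was the call of AP3 and with no genotype term was the call of AP1. Reads are uncertain for SPL3 (94.3% of 31-base words shared, opposite-strand overlap).

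Aliphatic glucosinolate genes, which make sulfur-containing defence compounds, rose in 10 of 21 cases and fell in 1 (median 0.46). The called share was 52.4%, beside 25.7% of all genes tested. The regulator MYB76 (AT5G07700) stood at 801, 728, 680.3 and 693 against 195 to 454 (median 341) (1.19 ± 0.21, adjusted p = 0.0037), without overlap, and its relative MYB29 rose by 0.90 ± 0.23. The list was sensitive to single libraries: its called members ran from 1 without WT of batch 3 to 13, with 2 without dne1, 3 without DNE1OE1 and 6 without DNE1OE2 of batch 3, 6 without DNE1OE1 of batch 1 and 5 without WT of batch 2. With library size as the only scaling, 3 members were called higher and 1 lower. Removing 1 library ended the call for MYB29 (without WT, dne1 or DNE1OE1 of batch 3).

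Nutrient lists other than iron moved less. Their counts are given beside 25.7% of all genes tested called either way, 13.3% higher and 12.4% lower. Of 21 nitrate and nitrogen genes 8 fell and 0 rose (4 falls without WT of batch 3). The ammonium transporter genes AMT1;1 (AT4G13510) and AMT1;3 (AT3G24300) fell by 1.05 ± 0.14 and 0.80 ± 0.13, AMT1;3 to 679.7, 844, 486 and 656 from 868 to 1373 (median 1126). Sulfur deficiency genes rose in 2 and fell in 2 of 14 cases (28.6% called, near the share of all genes), with SULTR2;1, a sulfate transporter of vascular tissue, at 0.55 ± 0.11. Phosphate starvation genes fell in 2 of 24 cases and rose in 0 (8.33% called, below the share of all genes). Cytokinin response genes rose in 2 and fell in 3 of 11 cases, among them the response regulator ARR16 at -1.14 ± 0.26 (adjusted p = 0.011). Over the 12 fits that left out 1 library, called members ran from 1 to 6 for sulfur, 0 to 3 for phosphate and 1 to 5 for cytokinin, the lowest each time without a batch 3 library. The call was lost with 1 library left out for ARR16 (without WT or dne1 of batch 3). Reads may be shared with other genes for AMT1;1 (98.4% of 31-base words shared, opposite-strand overlap).

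The remaining lists are given beside 25.7% of all genes called either way. Ethylene genes rose in 1 and fell in 1 of 19 cases, hypoxia genes in 2 and 0 of 14, and expansins and xyloglucan enzymes in 1 and 2 of 15. Of 13 mitochondrial and xenobiotic stress genes 2 rose and 2 fell (30.8% called), with the alternative oxidase gene AOX1A at 0.73 ± 0.11 (adjusted p = 0.0018) and the glutathione transferase gene GSTU25 at -1.33 ± 0.23 (adjusted p = 0.0033). AOX1A stood at 1705, 1438, 2047 and 1704 against 906 to 1382 (median 983), above all other libraries in batch 3. Of 10 measured seed storage and embryo genes 0 passed limma's test, with 1 at an unadjusted p under 0.05, 0 called by edgeR and 1 by DESeq2; the oleosin genes OLEO1 and OLEO2 were at -1.59 ± 0.73 (adjusted p = 0.13) and -1.34 ± 0.80. Against batch 2 alone 4 of the 10 were called lower and against batch 1 alone 1 was called higher. For batch 2 minus batch 1 the oleosin genes were at 2.06 and 2.19. Called members ran, over the fits that left out 1 library, from 0 to 4 for ethylene, 0 to 2 for hypoxia, 2 to 5 for mitochondrial and xenobiotic stress, and 0 to 6 for expansins and xyloglucan enzymes. Levels may include reads of other genes for OLEO1 (opposite-strand overlap) and OLEO2 (opposite-strand overlap).

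Batch 3 was then set against each of the other batches, in a fit with 3 batch levels over the same 12 libraries. It differed from batch 1 in 4343 genes (20.1%), 2353 higher and 1990 lower, and from batch 2 in 5716 (26.4%), 2933 higher and 2783 lower. Batches 1 and 2 differed from each other in 457 genes (2.11%), 146 higher and 311 lower in batch 2. The 3 comparisons share libraries, so their values are only set side by side. For CCA1 they were 2.47 against batch 1, 3.34 against batch 2 and -0.87 for batch 2 against batch 1. For LNK4 they were 1.78 against batch 1, 3.31 against batch 2 and -1.53 for batch 2 against batch 1, the last called (adjusted p = 0.011). IRT1 differed by -2.76 against batch 1, -3.57 against batch 2 and 0.80 for batch 2 against batch 1 (adjusted p = 0.49 for the last).

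List medians for batch 3 against batch 1, batch 3 against batch 2, and batch 2 against batch 1 were -1.02, -1.69 and 0.60 for iron deficiency, -0.85, -1.78 and 0.84 for flavonoids and 0.37, 0.69 and -0.31 for photosynthesis, with batch 1 between the other 2. For abscisic acid, cold and drought genes they were 1.07, 0.51 and 0.53, with batch 2 between. Between batches 2 and 1 the test called 4 iron, 6 flavonoid and 10 abscisic acid genes higher in batch 2 and 8 photosynthesis genes lower. Auxin genes, at 0.79, 0.86 and 0.07, and ribosomal genes, at -0.38, -0.48 and 0.06, showed batch 3 apart and batches 1 and 2 close. Of the 5 genes with the smallest p between batches 2 and 1, LHCB2.3 differed by -1.50, LNK4 by -1.53, the hydroperoxide lyase gene HPL1 by 1.70, CYP71B22 by -1.85 and AT2G08665, annotated only as an RNA, by -2.85. HPL1, CYP71B22 and AT2G08665 were not called between batch 3 and the others. The counts depended on single libraries. Against batch 1 the count was 1871 without WT, 2864 without dne1, 3666 without DNE1OE1 and 2597 without DNE1OE2 of batch 3. It was 2758 and 1949 without dne1 and DNE1OE1 of batch 1. Against batch 2 it was 2798 without WT, 3739 without dne1 and 5995 without DNE1OE1 of batch 3, and 3153 without WT of batch 2. Between batches 2 and 1 the count rested on nearly every library. It was 0, 8, 26 and 800.0 without DNE1OE1, dne1, WT and DNE1OE2 of batch 1, and 1, 1, 174 and 222 without WT, dne1, DNE1OE1 and DNE1OE2 of batch 2. Without WT and DNE1OE1 of batch 3 it was 209 and 1026, it was lower still without DNE1OE2 of batch 3, and DESeq2 called 1384. Reads are uncertain for AT2G08665 (100% of 31-base words shared, opposite-strand overlap, same-strand overlap).

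The last comparison asked whether the batch 3 difference itself differed between genotypes. By limma's F test 0 of 21631 genes (0.0%) passed, with 377 at an unadjusted p under 0.05; edgeR called 0 and DESeq2 51. With 1 batch 3 library per genotype the test has few degrees of freedom, and a p that misses the threshold does not show that genotypes behaved alike. Of the jasmonate genes described above, JAZ5, JAZ9 and CYP94C1 had unadjusted p-values of 0.00043, 0.00086 and 0.00096 by limma's F test, with DNE1OE1 the low genotype in each. None of them passed after adjustment. By the same test the unadjusted p-value was 0.96 for LNK2 and 0.78 for IAA29, where the 4 genotypes lay closer together. These genes were chosen with their values known, so the p-values only describe them. They cannot show that some genes differ between genotypes and others do not. By genotype the list medians of batch 3 against the mean of batches 1 and 2 were -1.72, -1.42, -0.79 and -1.49 for iron deficiency and 0.77, 0.77, 0.51 and 0.58 for the clock in WT, dne1, DNE1OE1 and DNE1OE2. For the rapid transients they were 0.55 in WT, -0.93 in DNE1OE1 and 0.59 in DNE1OE2, with dne1 the highest, and for jasmonate 0.02, 0.75, -0.29 and 0.66.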

How the data were processed

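Values are the authors' normalized counts (a signal: reads per gene divided by a size factor per library) in the deposited table, made with DESeq2 1.24.0 per the file header. The build was TAIR10, and HTSeq, HISAT2 (2.1.0) and bcl2fastq (2.17.1.14) are named, per the submitters' processing notes; the strand setting and annotation release are not given in the sources used here. Values of each library were whole multiples of 1 step (100% of values within 1e-06), which gave read totals of 36714564 to 70561391. On these reads edgeR called 5468 genes and DESeq2 6199 for batch 3, against 5556 by limma. The 12 other per-sample columns were not. Of 27782 genes 1208 had no value in 2018.

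Genes at 10 or more in at least 3 libraries were tested with limma 3.58.1 (R 4.3.3) on log2(normalized count + 1), with genotype and batch 3 as terms, with trend and with Benjamini-Hochberg adjustment. The script was tested on simulated data. Alternatives used edgeR 4.0.16, DESeq2 1.42.0, other scalings, filters, pseudocounts and fits without libraries. Libraries of 1 genotype, each from a different batch, differed by a chi-square per gene of 66.8 to 304.5 (pairs across genotypes were not compared). Pairs of batches 1 and 2 gave 66.8 to 112.2, and the highest value was that of WT in batches 2 and 3. Batch 3, the genes, the gene lists and their members were chosen with earlier results of these data known. Named were DNE1, VCS, the 12 largest rises and falls on 1 side in all 4 genotypes with a mean count of at least 50, up to 5 called genes per list (2 where none is called), and the 5 called genes with the smallest p for other comparisons; the text prints part of them. A further 32 genes were added after their values were seen. Of 637 list genes 614 matched a symbol in the RefSeq TAIR10.1 annotation, which also gave products, overlaps, 31-base words and promoters of 250 bases. Product families were added after seeing the data.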

Additional observations from a re-analysis of the deposited data

Results flagged for a closer look

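In 144 named genes the batch 3 difference was examined across the 4 genotypes, and in 8 (5.56%) 1 genotype lay so far from the other 3 that its gap exceeded 0.829 of the range, Dixon's limit for 4 values. Chance flags about 1 in 20 such groups.

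The DNE1OE1 library accounted for 5 of them. RRTF1, a redox responsive factor, differed by -1.53 in DNE1OE1 and by 5.15, 5.23 and 5.67 in WT, dne1 and DNE1OE2. JAZ8, a jasmonate repressor, differed by 0.12 there and by 3.99, 4.11 and 3.46 in the same 3 genotypes, and JAZ5 by -0.94 against 2.53, 2.57 and 2.80. ASN1, the asparagine synthetase, differed by 0.97 against 3.96, 3.94 and 4.17. In FSD1, an iron superoxide dismutase, DNE1OE1 was the highest, at 0.74 against 0.38, 0.42 and 0.38. For RRTF1 and JAZ8 the DNE1OE1 library of batch 3, the shallowest, held only a few reads. There 1 read equals 1.60 normalized counts, and both genes were low in batches 1 and 2 too, so their DNE1OE1 differences rest on values near the floor.

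EIN4, an ethylene receptor, stood apart in dne1, at -0.49 against -0.29, -0.26 and -0.28 in WT, DNE1OE1 and DNE1OE2. SPCH, which starts the stomatal lineage, stood apart in WT, at -1.17 against -0.45, -0.48 and -0.53 in dne1, DNE1OE1 and DNE1OE2. XTH20, a xyloglucan enzyme, was at -1.21 in WT against -0.36, -0.41 and -0.42. Each value rests on 1 batch 3 library, and whether other measures of that library moved with it was not tested.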

How the results depend on the processing

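For batch 3 against batches 1 and 2 the count of called genes stayed within 1.5 times 5556 under other filters, pseudocounts, scalings and tools. It was 736 with a log2 difference of at least 1 required. Without the 3 libraries of WT, dne1, DNE1OE1 and DNE1OE2 it was 2496, 3348, 3844 and 3029, and it ran from 2199 to 5365 with 1 library left out. Library size as the only scaling called 5884 genes, of which 25.1% were higher, against 51.7%. Under it the medians of the copper, ethylene and mitochondrial stress lists turned to -0.12, -0.03 and -0.03. Against batch 1 alone the count ran from 1871 to 4638 with 1 library left out, and against batch 2 from 2798 to 6421. For batch 2 against batch 1 it ran from 0 to 1026, and DESeq2 called 1384. The difference between genotypes gave 0 calls with any library left out and 51 by DESeq2. Of 137 called genes among 144 named, 47 kept the call in all 27 alternatives, 87 lost it in at least 1 and 0 turned direction. The other 3 (JAZ8, UF3GT and NIMIN2) kept it where tested but were not tested in all. JAZ8 was tested in 20, since it passed the filter only through batch 3 libraries, so its call was not put to a full test. Of 837 list counts 636 stayed within 1.5 times and 201 moved. The cause was not tested. No paired analysis was possible because the replicate number is the batch that is compared, and genotype is already a term.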

Other observations

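Product families drawn from the annotation after seeing the data were described in the same way, beside 13.3% of all genes called higher and 12.4% lower. Of 189 ribosomal proteins of the 40S and 60S subunits 128 fell and 2 rose in batch 3 (median -0.39), and of 61 ribosomal proteins of organelles 12 fell and 1 rose (median -0.16). Histones fell in 23 of 45 cases and rose in 2 (median -0.31). Pentatricopeptide repeat proteins, which process organelle RNA, fell in 95 of 436 cases and rose in 8 (median -0.25). Scaling by library size only moves the median of all genes to -0.13, so these medians depend in part on the scaling.

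B-box factors, many of which act in light signalling, rose in 12 of 21 cases and fell in 2 (median 0.58), and small auxin-up RNA genes rose in 26 of 65 and fell in 4 (median 0.42). Glutathione S-transferases, which conjugate glutathione to toxic compounds, rose in 4 of 56 cases and fell in 13 (median -0.10). Disease resistance proteins with nucleotide-binding and leucine-rich domains rose in 14 and fell in 12 of 113 cases, WRKY factors in 5 and 8 of 61, class III peroxidases in 9 and 11 of 82, and cysteine-rich receptor-like kinases in 4 and 2 of 35. Members of these families share sequence and were not treated as replicates.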
